A study of Mus musculus with 62 samples.

Results

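The 10 genes described here encode proteins of the fast-twitch sarcomere: the myosin heavy chains Myh2 (type IIa), Myh1 (type IIx) and Myh4 (type IIb), the fast myosin light chains Myl1 and Mylpf, the fast troponin subunits Tnnc2, Tnni2 and Tnnt3, and the Z-disc proteins Actn3 and Myoz1. They were listed by symbol for their known role, with earlier results of these data known, and make up 10 of the 35046 gene symbols in the series. Each was listed in all 4 experiments, although Tnnc2 could be read in 3 of them.

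The sarcomere is the contractile unit of the muscle fiber. Myosin heavy chains form the thick filament and hydrolyze ATP, the light chains brace the myosin lever arm, and the troponin complex on the thin filament turns a rise in calcium into contraction. Fast and slow fibers build this machine from different genes, and within fast fibers the heavy chain defines the IIa, IIx and IIb types, which run from oxidative and fatigue-resistant to glycolytic and powerful.

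RNA-seq was performed on 62 bulk libraries in 14 groups to follow the transcription factor ChREBP, encoded by Mlxipl, in mouse muscle. In chow-fed mice, gastrocnemius (GC) and soleus (SOL) muscles came from F/F mice (ChREBP-flox) and from ChMKO littermates (ChREBP-flox;Mck-cre), with 5 libraries per muscle and genotype that carry mouse numbers shared by both muscles. In a second set, GC was taken from both genotypes after normoxia (Norm), after hypoxia (Hypo) at a simulated altitude of about 5500 m for 2 weeks, or on a high-fructose diet (HFrD, 68% fructose) for 3 months, with 4 mice per group. The other two sets were GC of C57BL6/J mice 14 days after injection of AAV-MLXIPL or AAV-CON (5 each) and C2C12 cells, a mouse myoblast line, on day 7 of myogenic differentiation with ChREBP overexpression (Ch-OE) or the vector control (4 each). The study's methods give males of 8 to 10 weeks for its experiments and do not give ages at sampling, so mice after 3 months of diet may have been older than the Norm mice they are set against. All F/F and ChMKO mice carried loxP sites around exon 8 of Mlxipl, and Mck-cre is driven by the muscle creatine kinase promoter, so deletion is directed to striated muscle fibers and not to the other cells of the tissue. The AAV was delivered intramuscularly under a CMV promoter, and the C2C12 groups were puromycin-selected stable lines. In bulk muscle, fewer fibers of a type and less of a transcript per fiber cannot be told apart.

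Mlxipl itself was lower in ChMKO than F/F GC under Norm (3.30 ± 0.152 against 8.63 ± 1.05 FPKM, mean ± SD, n = 4 each, limma adjusted p = 0.00655), Hypo (adjusted p = 0.00297) and HFrD (adjusted p = 0.00306). In the chow set its mean was lower in ChMKO GC (15.7 against 24.9 FPKM) and SOL (38.4 against 53.4 FPKM) but did not pass the adjusted test (adjusted p = 0.413 and 0.384). Mlxipl was higher with AAV-MLXIPL (83.5 against 11.3 FPKM, adjusted p = 2.46e-06), and in C2C12 it was listed at 13.4 FPKM in Ch-OE and at 0 in 3 of 4 control libraries. Libraries held 14.5 to 23.5 M reads in the Norm, Hypo and HFrD set, and estimates were 16.4 to 20.0 M in the chow set and 15.4 to 20.0 M in the AAV set, while C2C12 depth is unknown. Skeletal muscle markers (Ckm, Acta1, Des, Mb, Ttn) summed to at least 16988.8 FPKM in each ChMKO library on HFrD and to 893.2 to 940.0 FPKM in control C2C12 cells.

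The 3 heavy chain genes lie in line on the plus strand of chromosome 11 (GRCm38), Myh2 at chr11:67171027-67197517, Myh1 at chr11:67200109-67224575 and Myh4 at chr11:67237812-67260447, within 89.4 kb. Tnni2 (chr7:142440490-142444410) and Tnnt3 (chr7:142498771-142516213) are also neighbours on the plus strand, 54.4 kb apart. Mylpf is at chr7:127208848-127214288 on the plus strand. On the minus strand are Myl1 (chr1:66924295-66945473), Tnnc2 (chr2:164777161-164779734), Actn3 (chr19:4861216-4877909) and Myoz1 (chr14:20649102-20656540).

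Because the 3 heavy chains are neighbours with distinct levels, the 250 bases before each annotated start are shown, from RefSeq (GRCm38.p6), 5′ to 3′ on the plus strand. Capitals mark a stretch of 20 bases common to all 3 and, nearer the start, the letters TATAAAAG. The windows are chr11:67170777-67171026, chr11:67199852-67200101 and chr11:67237562-67237811. That of Myh1 precedes its RefSeq start at 67200102, while the position given above for Myh1 begins at 67200109.
Myh2: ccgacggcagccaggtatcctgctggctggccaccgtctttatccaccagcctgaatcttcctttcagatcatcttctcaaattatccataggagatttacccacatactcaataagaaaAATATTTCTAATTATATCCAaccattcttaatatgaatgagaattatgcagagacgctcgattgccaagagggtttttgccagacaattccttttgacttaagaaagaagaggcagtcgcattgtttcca
Myh1: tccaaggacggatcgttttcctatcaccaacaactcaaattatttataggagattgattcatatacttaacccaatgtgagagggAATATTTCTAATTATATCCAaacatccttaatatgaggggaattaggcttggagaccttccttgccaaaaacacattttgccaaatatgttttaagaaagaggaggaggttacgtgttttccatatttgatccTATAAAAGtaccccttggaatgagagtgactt
Myh4: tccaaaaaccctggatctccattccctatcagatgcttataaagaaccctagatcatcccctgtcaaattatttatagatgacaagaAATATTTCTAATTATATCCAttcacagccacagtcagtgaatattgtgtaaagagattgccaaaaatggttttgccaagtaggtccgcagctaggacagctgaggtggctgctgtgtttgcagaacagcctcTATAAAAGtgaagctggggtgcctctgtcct

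The stretch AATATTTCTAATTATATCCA was the longest run shared by the 3 promoters, beginning 130 (Myh2), 165 (Myh1) and 163 (Myh4) bases before the start. Searched on both strands, it occurred in these 3 of 27025 promoters of equal length (0.0111%). Its presence in these 3 was fixed by the way it was chosen. The letters TATAAAAG began 32 bases before the start of Myh1 and 31 before that of Myh4 (1.62% of promoters have them on either strand). In Myh2 they were not in this window and began at base 11 after the annotated start. Of the 10 members, 6 had a promoter sequence (the 3 heavy chains, Myl1, Mylpf and Tnnc2). For Myl1 and Mylpf the window precedes a start that lies within the gene positions given above, not at their outer end. The E-box letters CANNTG, searched on both strands, occurred at 2 positions in Myh4 and Tnnc2 and at 1 in Myl1 and Mylpf, but not in Myh2 or Myh1, against 66% of all promoters. A MEF2 motif was found in Myh1 and Myh4 (3.01% of promoters) and a CArG box in Myh4 (1.40%). Neither CACGTG (6.05% of promoters) nor the carbohydrate response element that ChREBP is known to bind (0.0925%) matched any of the 6 windows, which says only that these letters are absent there.

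Myh4 was the most abundant heavy chain in GC and Myh2 in most SOL libraries. Levels are given in FPKM, which is per transcript length, and the slow heavy chain Myh7 was taken as a reference for type I fibers. In GC of F/F mice, Myh4 made up 87.2% ± 5.47 (SD, n = 5) of the summed FPKM of the 4 genes, Myh1 8.47% ± 2.27, Myh2 4.24% ± 3.38 and Myh7 0.123% ± 0.134. The order Myh4, Myh1, Myh2, Myh7 held in every GC library of the chow, Norm, Hypo, HFrD and AAV sets. In SOL of F/F mice, Myh7 (34.4% ± 6.87) and Myh2 (34.3% ± 7.87) shared the first place, followed by Myh1 (21.9% ± 3.42) and Myh4 (9.46% ± 7.33). Myh2 exceeded Myh7 in 4 of 5 F/F and in 5 of 5 ChMKO SOL libraries, so these neighbours in the order were not separated by their spread in F/F mice. In C2C12 cells the order was Myh1, Myh4, Myh7, Myh2 in each library. FPKM were made separately for each set, so levels are not compared across sets, and whether shares can be was not tested.

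**Figure D1:**
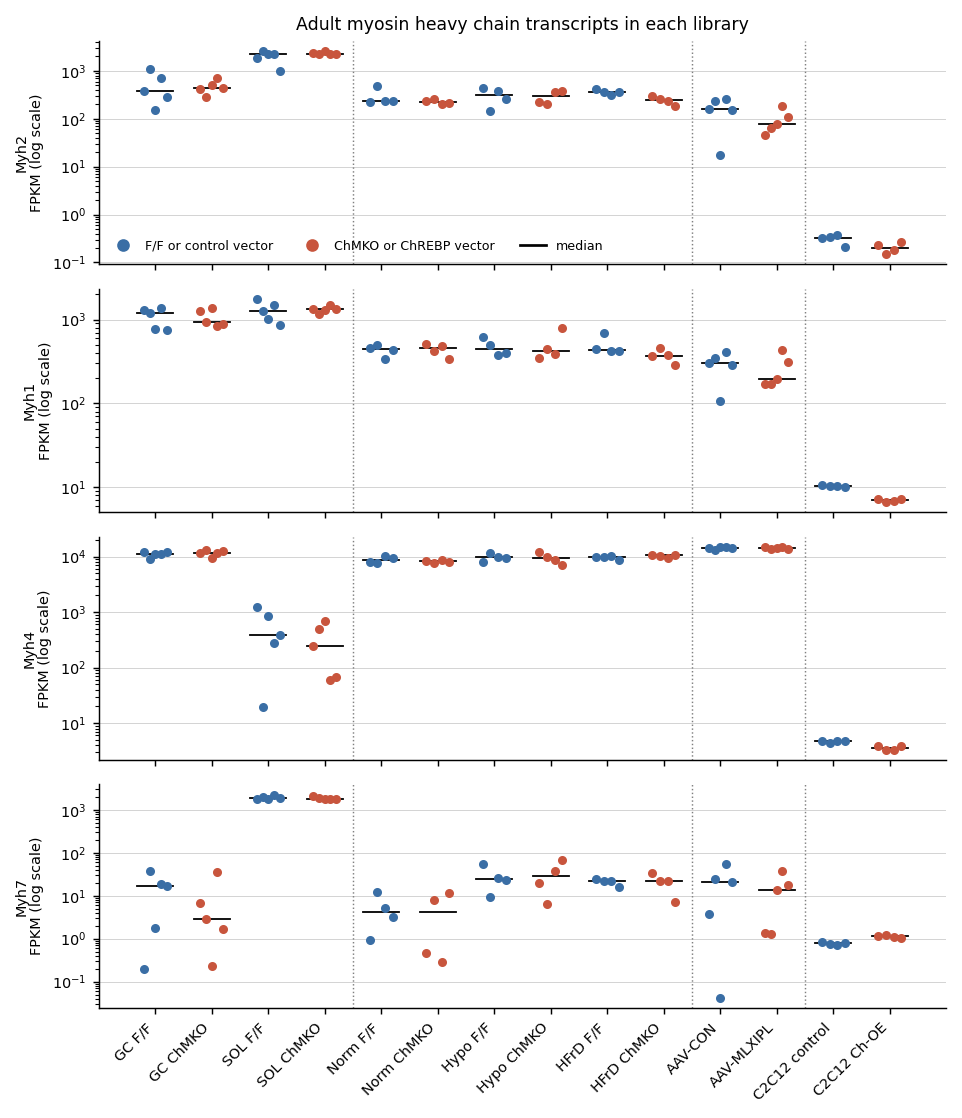
FPKM (log axis) of Myh2, Myh1, Myh4 and Myh7 in every library, by group; points are libraries, black lines are group medians and dotted lines separate the 4 experiments. Myh4 lies at or above 7198 FPKM in every GC library and between 19.4 and 1228.8 FPKM in SOL. Every heavy chain shown is at or below 10.5 FPKM in C2C12 cells.

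Short runs of these genes are alike. Windows of 50 bases in the longest coding transcript were searched in the other heavy chains among these 4, Myh3, Myh8 and Myh13. Without a mismatch, 26.9% of windows in Myh2, 26.7% in Myh1 and 18.9% in Myh4 occurred in another of them, against 0.21% in Myh7. Myh2 and Myh1 shared 19.7% of their windows with each other, and 9.94% of those of Myh2 and 10.5% of those of Myh1 occurred in Myh4. How reads from shared windows were assigned is not given in the sources used here, which leaves low Myh2 or Myh1 values beside very high Myh4 uncertain.

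The 10 members together took 11.5% ± 2.09 (SD, n = 5) of the summed FPKM in F/F GC and 3.93% ± 0.245 in F/F SOL. Within the other sets they took 22.1% ± 0.638 with AAV-CON (n = 5) and 0.262% ± 0.00509 in control C2C12 cells (n = 4).

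Members differed in how much they varied among the F/F GC libraries of the chow set. Myh2 ranged from 154.8 to 1089.5 FPKM, with 385.4, 1089.5, 154.8, 698.9 and 290.3 FPKM in mice 57, 58, 69, 70 and 71. The mouse with the highest Myh2, number 58, also had the highest Myh7 (37.6 FPKM) and the lowest Myh4 (8918.7 FPKM). Mouse 69, with the lowest Myh2, had the highest Myl1, Mylpf, Tnnc2, Tnni2, Tnnt3, Actn3 and Myoz1. The ratio of the highest to the lowest library was 7.04 for Myh2, but 1.36 for Myh4 (8918.7 to 12162.4 FPKM) and 1.81 for Myh1 (756.3 to 1371.9 FPKM).

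The first comparison was between a fast and a slow muscle. In F/F mice, Myh4, Actn3, Myoz1, Myl1, Mylpf, Tnnc2, Tnni2 and Tnnt3 were lower in SOL than GC and Myh2 was higher, so that 9 of 10 members passed limma's test with Benjamini-Hochberg adjustment (adjusted p under 0.05), against 50.4% of the 13235 genes tested. By direction, 8 of 10 were lower (12.5% of all genes) and 1 was higher (37.9%). With the criterion of an absolute log2 difference of at least 1 and unadjusted p under 0.05, 7 of 10 members passed, against 7.99% of all genes.

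Myh4, the IIb heavy chain, measured 12162.4, 8918.7, 11272.3, 11274.0 and 12123.8 FPKM in GC of F/F mice 57, 58, 69, 70 and 71. The SOL of these mice held 1228.8, 19.4, 864.9, 280.5 and 391.3 FPKM, all below the lowest GC value and widely spread, with mouse 58 lowest in both muscles. The SOL library given here as mouse 69 has that number in its data column but 59 in its title, and its deviations from the group mean had a correlation of -0.02 with those of GC 69, so the mouse it came from is uncertain while its group is not. The difference was -5.21 ± 0.886 (log2, standard error; 37.0-fold lower; adjusted p = 0.000664), and -4.24 without SOL of mouse 58, while the ratio of the group means was 20.0. Actn3, an actin-crosslinking protein of fast Z-discs, followed a like pattern, at 414.4, 35.8, 276.7, 161.7 and 172.3 FPKM in SOL against 2655.1 to 4655.8 FPKM in GC. It was 21.6-fold lower (log2 -4.43 ± 0.519, adjusted p = 5.90e-05).

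Myh2, the IIa heavy chain, was 1890.2, 2616.6, 2254.9, 2275.7 and 1014.6 FPKM in F/F SOL and 4.54-fold higher than in GC (log2 2.18 ± 0.467, adjusted p = 0.00270). SOL of mouse 71 was below GC of mouse 58 (1089.5 FPKM), so the groups overlapped. Myh1, the IIx heavy chain, was 1771.5, 1255.4, 1014.4, 1488.2 and 865.3 FPKM in SOL, within reach of the 756.3 to 1371.9 FPKM of GC, and did not pass the test (log2 0.24 ± 0.236, 95% interval -0.27 to 0.76, adjusted p = 0.412).

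The light chains and Myoz1, a calcineurin-binding protein of fast Z-discs, fell by intermediate amounts. Myoz1 was 4.16-fold lower in F/F SOL (365.3 ± 75.7 against 1522.2 ± 307.3 FPKM, n = 5, limma adjusted p = 6.86e-06). Myl1 was 3.42-fold lower (1180.9 ± 143.9 against 4086.6 ± 833.6 FPKM) and Mylpf, the regulatory light chain, 3.15-fold lower (1806.4 ± 126.2 against 5764.1 ± 1151.9 FPKM). SOL and GC libraries did not overlap for any of the 3 genes, nor for the other members that fell (9.64% of all genes).

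Fast troponins differed least among the members that fell, and stayed abundant in SOL. Tnnc2, the calcium-binding subunit, was 8079.0 ± 881.0 FPKM in F/F SOL and 17094.6 ± 3573.7 FPKM in GC (2.09-fold lower, adjusted p = 0.000591). Tnni2, the inhibitory subunit, read 2316.1, 2233.6, 2128.2, 2019.1 and 2476.1 FPKM in SOL against 3566.2, 2820.6, 6141.0, 3988.5 and 4544.2 FPKM in GC of mice 57, 58, 69, 70 and 71 (1.83-fold lower, limma adjusted p = 0.00308). Tnnt3, which binds tropomyosin, was 1.79-fold lower (4020.1 ± 186.4 against 7268.6 ± 1343.6 FPKM, adjusted p = 0.000755). No SOL library reached the lowest GC library for these troponins.

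**Figure D2:**
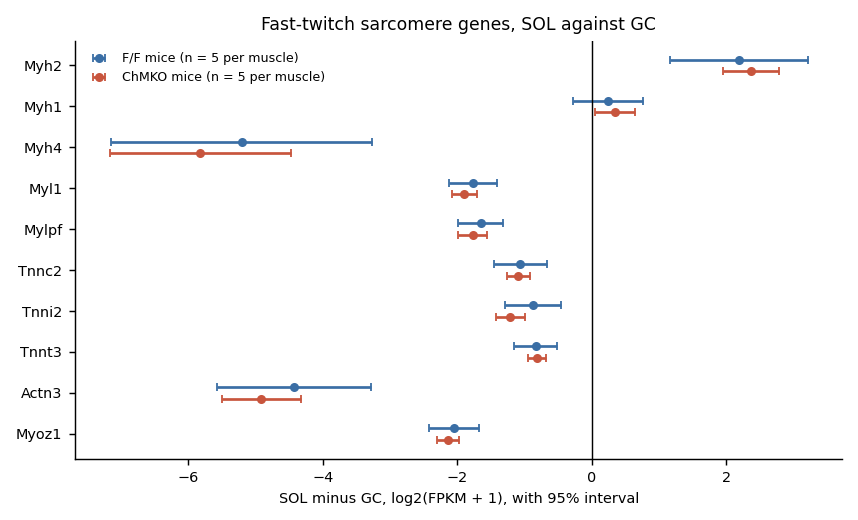
Difference between SOL and GC in log2(FPKM + 1) for each member, with its 95% interval, in F/F and ChMKO mice (5 libraries per muscle and genotype). Myh4 and Actn3 lie farthest below 0 at -5.21 and -4.43 in F/F mice, Myh2 lies above 0 in both genotypes, and the intervals of the genotypes overlap for every member.

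In ChMKO mice 10 of 10 members passed the same test, against 57.9% of 13080 genes, 8 lower (16.9% of genes) and 2 higher (41.0%). Myh4 fell by 5.82 (log2, 56.7-fold lower, adjusted p = 1.05e-05) and Actn3 by 4.92 (30.3-fold lower, adjusted p = 6.37e-08). Myh2 was higher in every SOL library (2209.6 to 2566.7 FPKM) than in any GC library (283.7 to 717.1 FPKM; 30.2% of genes), 5.17-fold. The 8 members that fell did so without overlap (12.8% of genes), and 8 of 10 members met the criterion of a log2 difference of at least 1 (7.83% of genes). Myh1 was the member at the edge of the test (log2 0.34 ± 0.136, adjusted p = 0.0468). It missed the threshold with mouse as a block (adjusted p = 0.0593) and in 11 of 16 alternatives in all. Whether SOL and GC differed by genotype was tested as an interaction, and 0 of 10 members passed limma's adjusted or unadjusted test (0.00759% and 5.31% of all genes). The muscles of a genotype carry the same mouse numbers.

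Other sarcomere genes of the 2 muscles are given for context, from lists of known function. The slow counterparts were higher in SOL in 8 of 8 cases in each genotype, and in F/F mice the largest differences were those of Tnnc1, the slow troponin C (log2 7.97), Myh7 (7.83) and Tnni1 (7.44). Of 19 other sarcomere genes, 9 were higher in F/F SOL, led by the slow tropomyosin Tpm3 (6.23), Myom3 (3.32) and Lmod2 (2.88), and 7 were lower, led by Mybpc2, the fast myosin-binding protein C (-3.92), Tpm1 (-1.65) and the kinase Mylk2 (-1.47), which phosphorylates fast light chains. Among developmental genes, Tnnt2 was higher (1.77) and the perinatal heavy chain Myh8 (-3.13) and Actc1 (-1.66) were lower. Of 17 tested regulators of fast fiber genes, 9 were lower, led by the large Maf factors Maf (-2.71) and Mafa (-2.65) and by Eya4 (-1.65), and 6 were higher, led by Vgll2 (2.33), Mef2c (0.47) and Eya3 (0.38). The median difference was -1.36 over the 10 members and 0.18 over all genes. Scaling libraries by median ratios lowered the values by about that shift (Myh2 1.95, Myh1 0.01, Tnnt3 -1.07) without changing a call by adjusted p in F/F mice, while the members with a log2 difference of at least 1 went from 7 to 9, Tnni2 and Tnnt3 being added.

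Markers of some other cell types also differed between the muscles, and no marker was at 0 in every library. In F/F mice all 4 endothelial markers were higher in SOL, summing to 95.5 to 152.7 FPKM against 29.3 to 65.2 FPKM in GC. Red blood cell markers were higher for 5 of 5 (165.4 to 354.3 against 61.9 to 122.9 FPKM), smooth muscle markers for 3 of 4 (77.2 to 171.7 against 33.4 to 60.2 FPKM) and adipocyte markers for 2 of 5 (311.7 to 588.7 against 129.6 to 178.5 FPKM). No leukocyte, Schwann cell or fibroblast and tendon marker passed in F/F mice, and 1 of 3 tested early differentiation markers was lower. In ChMKO mice, 4 of 4 endothelial, 5 of 5 red blood cell and 4 of 4 smooth muscle markers were higher. So were 3 of 5 adipocyte and 3 of 4 Schwann cell markers. There 1 of 4 tested leukocyte and 1 of 2 tested early differentiation markers were lower. The part of these markers in the differences of the members was not tested.

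The central comparison was loss of ChREBP. In GC of chow-fed mice, 0 of 10 members passed the adjusted test between ChMKO and F/F (0.0236% of genes did), and 0 had an unadjusted p under 0.05 (4.63% of genes did) with limma. Myh4 was 11633.9, 13063.0, 9437.4, 11853.9 and 12612.7 FPKM in ChMKO mice 59, 60, 61, 72 and 74, across the F/F range (log2 0.07, 95% interval -0.25 to 0.39). Troponin differences were also near 0, with Tnni2 at 0.03 (-0.36 to 0.43), Tnnt3 at -0.10 (-0.39 to 0.19) and Tnnc2 at -0.09 (-0.44 to 0.26). Myh2 was the least certain (0.09, -0.91 to 1.09).

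In SOL, 0 of 10 members passed the adjusted test (0.0225% of genes), and 1 passed unadjusted (9.74% of genes). That gene was Tnni2, at 2006.4, 1889.3, 2131.9, 1531.4 and 1514.2 FPKM in ChMKO mice 59, 60, 61, 72 and 74 against 2019.1 to 2476.1 FPKM in F/F mice. The groups overlapped through mouse 61 (log2 -0.31 ± 0.112, limma adjusted p = 0.433). Myh4 was 249.5, 496.1, 698.5, 61 and 66.9 FPKM in ChMKO SOL, a spread so wide that its interval ran from -2.90 to 1.81 (log2 -0.54). Leaving out single libraries gave differences from -1.51, when number 58 was dropped, to -0.03, when number 57 was dropped. Myh2 (2327.6 ± 145.3 against 2010.4 ± 613.1 FPKM) and Myh1 (1326.5 ± 110.3 against 1279.0 ± 363.3 FPKM) overlapped between genotypes.

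The Norm, Hypo and HFrD set has a split that bears on its values. On the first principal component over 10716 genes, with 61.6% of the variance, 12 libraries lay on each side. One side held all 8 HFrD libraries with 2 of 4 Norm F/F mice and 2 of 4 Hypo F/F mice, and the other held the remaining F/F mice and every Norm and Hypo ChMKO mouse. The giant sarcomere genes followed it without overlap: Ttn was 133 to 162 FPKM on the side with HFrD and 21.2 to 43.0 FPKM on the other, and Neb was 357 to 408 against 53.9 to 133 FPKM. So did 3 members in the opposite direction, Mylpf (4868.6 to 8180.8 against 8514.3 to 15373.5 FPKM), Tnni2 (2805.0 to 3418.2 against 3671.3 to 4809.3 FPKM) and Myoz1 (722.4 to 1063.4 against 1165.3 to 1438.1 FPKM). The sides overlapped for Myh2, Myh1, Myh4, Myl1, Tnnt3 and Actn3. The share of all genes that separated between the sides was not counted, so no excess among the members is claimed. Nothing in the labels names the split as a batch. Tnnc2 was listed at 0.471 to 1.77 FPKM in this set and is not read here, which leaves 9 members.

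**Figure D3:**
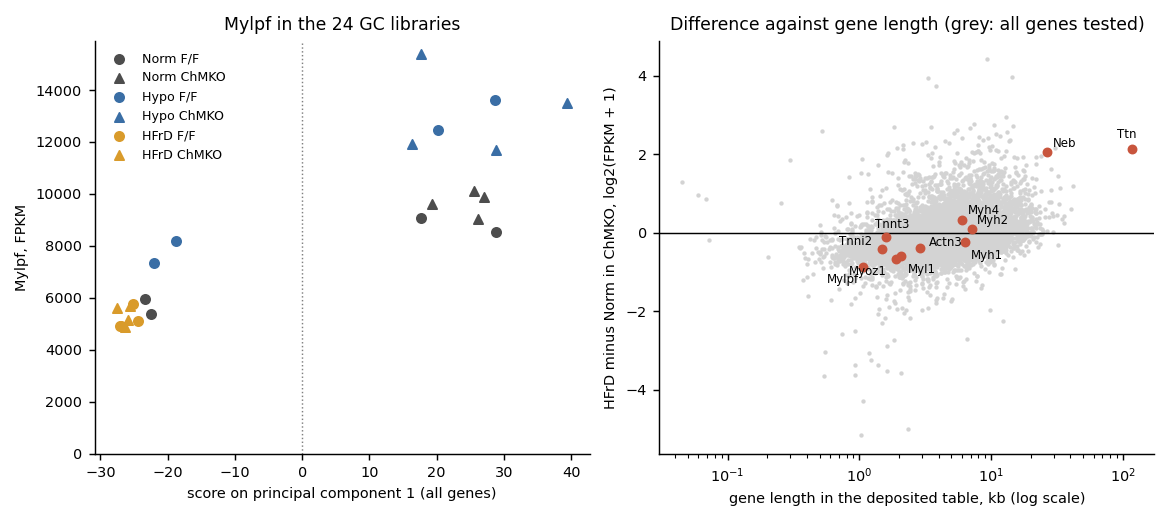
Left, Mylpf in FPKM against the score on principal component 1 for each of the 24 GC libraries, by group; the 12 libraries left of 0, all HFrD libraries among them, lie at or below 8180.8 FPKM and the others at or above 8514.3 FPKM. Right, the difference between HFrD and Norm in ChMKO mice, in log2(FPKM + 1), against gene length in kb (log axis). Grey marks all genes tested and red the members, Ttn and Neb. The median over all genes is lower for short genes than for long ones, and single members depart from that order.

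Within Norm, 0 of 9 members passed the adjusted test between ChMKO and F/F (0.00922% of genes; voom on recovered reads also gave 0), and 4 passed limma's unadjusted test (11.1% of genes). These were Mylpf (log2 0.45), Tnni2 (0.33), Myl1 (0.30) and Myoz1 (0.28), each with adjusted p = 0.419. Without the 2 Norm F/F mice on the HFrD side the values, given with no test, were 0.13, 0.18, 0.21 and 0.15. Myl1 was 5990.2, 5999.8, 5747.6 and 5882.6 FPKM in the 4 ChMKO mice and 5333.5, 4856.3, 4473.4 and 4594.8 FPKM in the 4 F/F mice, the last 2 of these on the HFrD side. For Myl1, Tnni2, Actn3 and Myoz1, 4 of 9 members, every ChMKO value was above every F/F value (2.26% of genes). Myh2 (227.7 ± 24.6 against 293.5 ± 124.2 FPKM, n = 4), Myh1, Myh4 and Tnnt3 overlapped between genotypes.

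Within Hypo, 0 of 9 members passed limma's adjusted test (0.00941% of genes; 0 by voom) and 0 passed unadjusted (5.27% of genes). Mylpf had the largest genotype difference (log2 0.38 ± 0.247, adjusted p = 0.532), which was 0.00 without the 2 F/F mice on the HFrD side. Myh4 was 12075.0, 9951.1, 8813.3 and 7198.0 FPKM in ChMKO mice and 8097.3, 11834.2, 9818.3 and 9660.6 FPKM in F/F mice, with overlap.

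On HFrD, where all libraries were on one side of the split, 0 of 9 members passed the adjusted test between genotypes (0.0190% of genes; 0 by voom), and 3 passed limma's unadjusted test (7.36% of genes). Myh2 was 297.1, 258.3, 236.5 and 182.8 FPKM in ChMKO mice and 409.6, 355.9, 309.6 and 368.5 FPKM in F/F mice. All ChMKO values were below all F/F values, as for 2.95% of genes (log2 -0.58 ± 0.137, limma adjusted p = 0.557). The others were Myh1 (-0.40, limma adjusted p = 0.678) and Actn3 (0.16, adjusted p = 0.642), both with overlap.

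Hypoxia was set against Norm within each genotype. In F/F mice 0 of 9 members passed limma's adjusted or unadjusted test (0.00% and 3.84% of genes; 0 by voom), although Actn3 was above every Norm library in every Hypo library (0.382% of genes; log2 0.36, adjusted p = 1.00). In ChMKO mice 0 of 9 passed the adjusted test (0.890% of genes; 0 by voom) and 2 passed unadjusted (15.1% of genes). Mylpf was 15373.5, 11915.1, 13482.8 and 11675.2 FPKM in Hypo and 9042.7, 9622.3, 10094.5 and 9890.2 FPKM in Norm ChMKO mice, without overlap, as for 3.24% of genes (log2 0.43 ± 0.114, limma adjusted p = 0.115). Actn3 was the other (0.31 ± 0.111, adjusted p = 0.224). Myh7 was higher on average in Hypo in both genotypes but did not pass (F/F 27.7 ± 18.7 against 5.38 ± 4.92 FPKM, adjusted p = 1.00; ChMKO 33.3 ± 26.8 against 5.03 ± 5.57 FPKM, adjusted p = 0.165). The interaction of genotype and hypoxia had 0 of 9 members past limma's adjusted or unadjusted test (0.00% and 1.23% of genes; 0 by voom). This comparison and the next share the Norm mice.

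HFrD against Norm in ChMKO mice gave 6 of 9 members past limma's adjusted test, where 64.0% of 10731 genes passed. Myh4 was higher (1 of 9, 19.4% of genes), and Mylpf, Myoz1, Myl1, Tnni2 and Actn3 were lower (5 of 9, 44.6% of genes). No member had a log2 difference of at least 1 (5.06% of genes met that criterion). HFrD libraries were set against Norm because the labels name no other control for the diet. This contrast coincides with the split described above, so diet and split cannot be told apart in ChMKO mice.

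Mylpf was 4868.6, 5135.2, 5614.2 and 5668.9 FPKM in HFrD ChMKO mice, beside 5958.0 and 5392.5 FPKM in the 2 Norm F/F mice on the HFrD side. It was 1.82-fold lower than in Norm ChMKO mice (log2 -0.86 ± 0.0703, limma adjusted p = 1.01e-05). Myoz1 was 819.5, 799.7, 860.4 and 920.4 FPKM on HFrD against 1370.9, 1309.7, 1391.5 and 1338.7 FPKM (1.59-fold lower, adjusted p = 1.26e-05). Myl1 was 1.52-fold, Tnni2 1.33-fold and Actn3 1.31-fold lower, and for each of these 5 genes the groups did not overlap, as for 39.2% of all genes in that direction. Myh4 was 10841.2, 10340.4, 9635.6 and 10684.6 FPKM against 8520.0, 7753.5, 8680.9 and 7951.6 FPKM, all higher, as for 18.0% of genes (1.26-fold, adjusted p = 0.00186, or 0.0620 with no filter on low genes). Myh2 (log2 0.08), Myh1 (-0.24) and Tnnt3 (-0.12) did not pass.

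The difference varied with gene length over all genes: its median was -0.46 for genes under 1 kb, -0.38 for 1 to 2 kb, -0.24 for 2 to 5 kb, -0.08 for 5 to 10 kb and 0.14 for those over 10 kb. The members that fell are 1.06 kb (Mylpf) to 2.90 kb (Actn3) long and Myh4 is 6.02 kb, and the part of length in their values was not tested. The median over all genes was -0.17, and median-ratio scaling moved Myh4 to 0.54, Mylpf to -0.66, Tnni2 from -0.41 to -0.21 (adjusted p = 0.0361) and Actn3 from -0.39 to -0.19 (adjusted p = 0.0474), with all 6 calls kept. Tnnt3, which did not pass, went from -0.12 to 0.08. Among the other sarcomere genes 5 were higher, led by Ttn (2.13), Neb (2.05) and Lmod2 (1.21), and 8 lower, led by Acta1 (-0.70), Ldb3 (-0.53) and Tpm2 (-0.52). Myh7 was higher (21.0 ± 10.6 against 5.03 ± 5.57 FPKM, adjusted p = 0.0239). Of developmental genes 1 was lower, Actc1 (-2.88). Among regulators, 6 were higher, among them Eya4 (1.46) and Mef2c (0.87), and 5 lower, among them Myod1 (-1.54) and Mafa (-0.88). Fibroblast and tendon markers were lower for 4 of 5 genes (124.6 to 152.6 against 222.7 to 453.8 FPKM in sum), endothelial markers for 4 of 4 (41.3 to 51.0 against 77.1 to 89.2 FPKM), leukocyte markers for 4 of 4 tested (28.4 to 41.9 against 45.8 to 103.6 FPKM) and red blood cell markers for 5 of 5 (62.3 to 191.4 against 216.9 to 406.9 FPKM). Skeletal muscle markers were lower for 3 of 5 genes and higher for 1, and their sum was 16988.8 to 18708.2 against 25594.3 to 30849.2 FPKM. Early differentiation markers were lower for 2 of 3 tested and higher for 1 (5.64 to 11.1 against 16.3 to 44.6 FPKM). Adipocyte markers were higher for 1 of 5 (45.4 to 57.9 against 47.2 to 57.4 FPKM), Schwann cell markers were higher for 1 and lower for 1 of 4 (25.5 to 56.1 against 42.6 to 175.9 FPKM), and smooth muscle markers were lower for 1 of 3 tested (43.1 to 61 against 57.6 to 109.0 FPKM). The part of these markers in the differences was not tested.

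In F/F mice, HFrD against Norm gave 0 of 9 members past limma's adjusted test (0.00% of genes; 0 by voom) and 4 past the unadjusted test (23.6% of genes): Myoz1 (log2 -0.46), Mylpf (-0.45), Myl1 (-0.37) and Actn3 (-0.30). Mylpf was 4911.1, 4922.8, 5104.4 and 5778.5 FPKM on HFrD and 9079.3, 8514.3, 5958.0 and 5392.5 FPKM in Norm, so that the Norm group itself was split. Myl1, Actn3 and Myoz1 were lower on HFrD without overlap (13.3% of genes). Without the 2 Norm mice on the HFrD side the difference of Mylpf was -0.77 and that of Myoz1 -0.59, and against those 2 mice alone they were -0.13 and -0.34. Myh4 (0.31 and -0.04) and Tnni2 (-0.20 and 0.11) took opposite signs against the 2 pairs of Norm mice. These values are descriptions with no test, because the split was found in the same expression values. The interaction of genotype and diet had 0 of 9 members past limma's adjusted test (0.00% of genes; 0 by voom) and 1 past the unadjusted test (10.3% of genes), Tnni2 (-0.37, adjusted p = 0.451).

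For gain of ChREBP in adult GC, the groups overlapped for every member. With AAV-MLXIPL, 0 of 10 members passed limma's adjusted test (0.00907% of genes) and 0 the unadjusted one (2.89% of genes). Myh2 was 45.8, 64.4, 76.7, 189.0 and 110.0 FPKM with AAV-MLXIPL and 157.5, 235.1, 17.4, 253.9 and 151.7 FPKM with AAV-CON in libraries 1, 3, 4, 7 and 8. Library 4 of AAV-CON was lowest of all and also lowest in Myh1 (106.9 FPKM) and Myh7 (0.042 FPKM), and the interval of the Myh2 difference was wide (log2 -0.48, -1.87 to 0.90). Without that library the difference was -1.16, which did not pass either (adjusted p = 1.00). Myh1 was 106.9 to 405.9 FPKM with AAV-CON and 168.1 to 437.8 FPKM with AAV-MLXIPL, and its interval was also wide (log2 -0.16, -0.93 to 0.61). The other 8 members had narrower intervals, such as Myh4 (0.01, -0.14 to 0.15), Tnni2 (-0.02, -0.17 to 0.14), Tnnt3 (-0.05, -0.20 to 0.10) and Myoz1 (-0.01, -0.13 to 0.10).

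**Figure D4:**
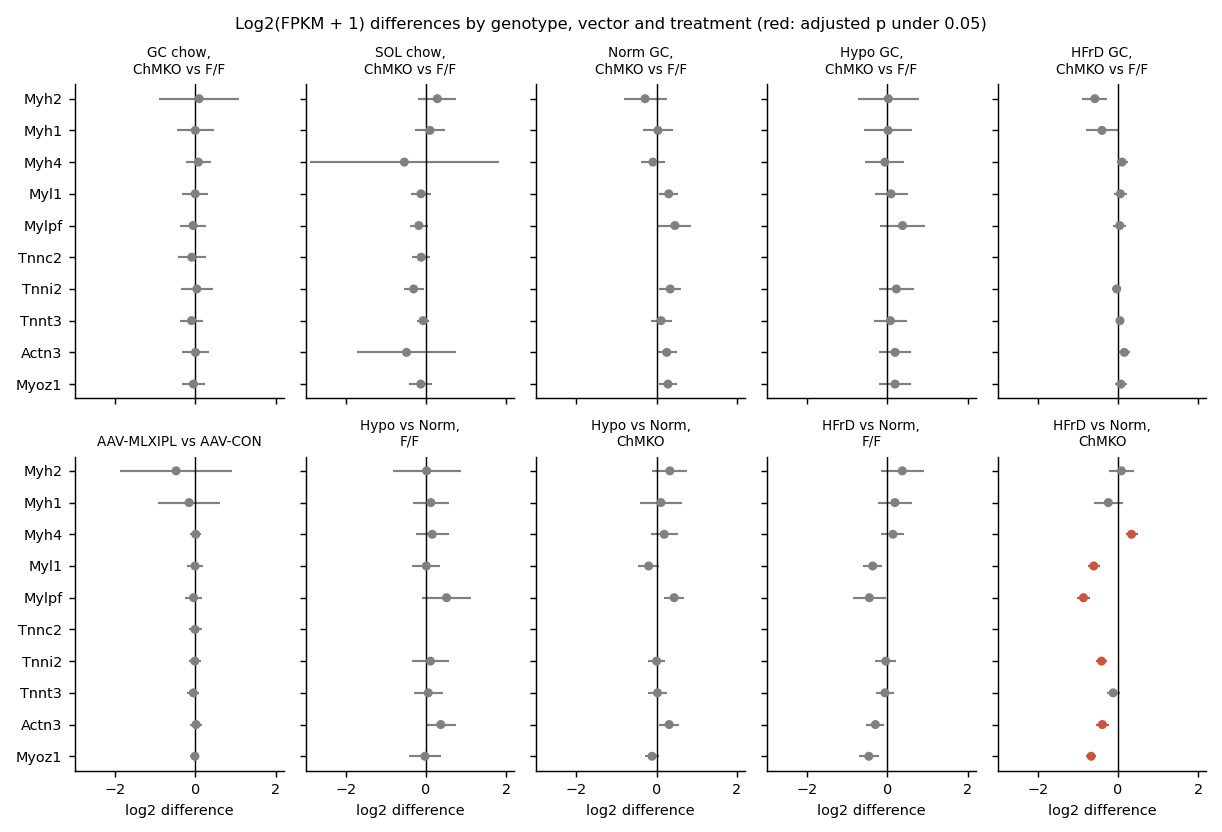
Differences in log2(FPKM + 1) of the members with 95% intervals for the genotype, vector, hypoxia and diet comparisons (4 or 5 libraries per group); red marks adjusted p under 0.05 by limma. Red points are present in the comparison of HFrD and Norm in ChMKO mice and in no other panel, and Tnnc2 is not shown for the Norm, Hypo and HFrD libraries.

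In differentiated C2C12 cells members differed in both directions. With Ch-OE, 7 of the 8 members tested passed limma's adjusted test, against 30.5% of 11938 genes. The light chains and troponins were higher (5 of 8, 16.4% of genes) and the heavy chains Myh1 and Myh4 lower (2 of 8, 14.1% of genes). None reached a log2 difference of 1 (0.377% of genes met that criterion). The study's methods describe the replicates of a group as independent. Each C2C12 group was nevertheless 1 selected line, so these p-values measure the spread between libraries of a line and not between lines.

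Mylpf was 838.2, 896.3, 833.5 and 840.3 FPKM in Ch-OE libraries 1 to 4 and 518.8, 492.3, 538.5 and 515.8 FPKM in the control, 1.65-fold higher (log2 0.72 ± 0.0370, limma adjusted p = 1.74e-07). Myl1 rose from 301.5 ± 24.8 to 430.9 ± 13.2 FPKM (1.43-fold). Among troponins, Tnnt3 rose from 127.2 ± 4.51 to 179.1 ± 3.54 FPKM (1.41-fold), Tnni2 from 92.9 ± 5.63 to 122.0 ± 4.52 FPKM (1.31-fold) and Tnnc2 from 85.9 ± 3.29 to 101.3 ± 2.94 FPKM (1.18-fold). For these 5 genes no Ch-OE library was as low as a control library, as for 16.7% of all genes.

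The adult heavy chains Myh2, Myh1, Myh4 and Myh7 were far scarcer than the light chains, while levels of Myh3 and Myh8 are not given here. Myh1 was 7.31, 6.66, 6.77 and 7.18 FPKM in Ch-OE and 10.5, 10.2, 10.4 and 9.93 FPKM in the control (log2 -0.50 ± 0.0419, 1.41-fold lower, adjusted p = 7.64e-06). Myh4 was 3.89, 3.30, 3.35 and 3.90 FPKM against 4.85, 4.43, 4.82 and 4.81 FPKM (log2 -0.32 ± 0.0595, adjusted p = 0.00225). Both were lower in every Ch-OE library (14.7% of genes). The share of Myh7 among the 4 heavy chains was 9.50% ± 0.928 against 4.81% ± 0.380, and Myh7 rose from 0.773 to 1.13 FPKM (limma adjusted p = 0.00774). By qRT-PCR on other days of differentiation, the paper reports Myh4 in the opposite direction, higher in Ch-OE cells, and Myh7 higher as here. Myh1 and Myh4 were low in these cells, and how reads from windows shared with other heavy chains were assigned is not given. Actn3 was 164.3 ± 6.29 against 153.7 ± 8.47 FPKM and did not pass (adjusted p = 0.102). Myh2 and Myoz1 stayed at or below 0.46 FPKM, under the filter of a mean of 0.5, and were not tested.

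**Figure D5:**
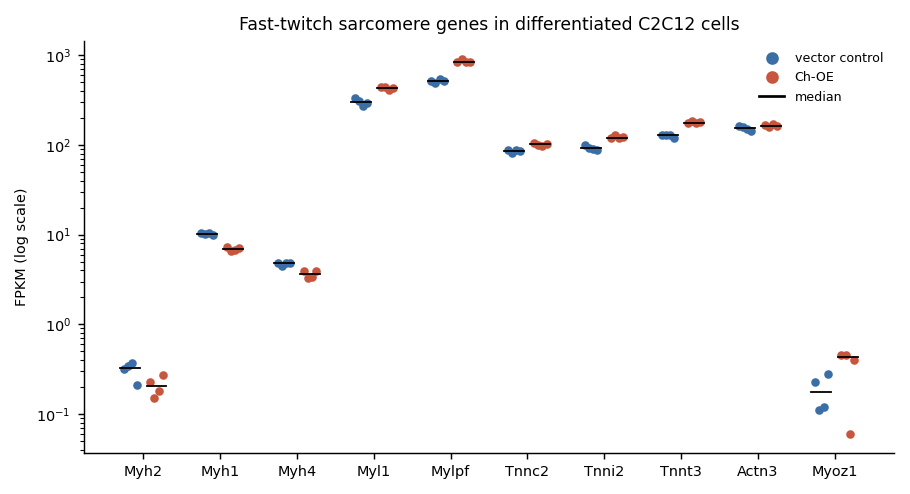
FPKM (log axis) of the 10 members in C2C12 cells on day 7 of differentiation; points are the 4 libraries of each line and black lines medians. Mylpf, Myl1 and the troponins lie higher in Ch-OE, Myh1 and Myh4 lie lower, and Myh2 and Myoz1 lie below 0.5 FPKM.

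Slow, developmental and shared sarcomere genes moved in the same cells. Of 6 slow counterparts tested, 5 were higher, led by Tnnt1 (log2 0.50), Tnni1 (0.50) and Tnnc1 (0.44). Of 18 other sarcomere genes, 15 were higher, led by Ttn (0.83), Lmod3 (0.73) and Lmod2 (0.72). The embryonic heavy chain Myh3 (0.99), Actc1 (1.03), Myl4 (0.50) and Tnnt2 were higher, and Myh8 was lower (-0.28). Among 16 regulators tested 6 were higher, led by Mef2c (0.49), Tbx15 (0.31) and Prdm1 (0.31), and 2 lower, Six5 (-0.31) and Nfix (-0.26). Skeletal muscle markers were higher for 4 of 5 genes (1020.7 to 1061.6 against 893.2 to 940.0 FPKM in sum), early differentiation markers for 3 of 5 (204.9 to 215.3 against 160.3 to 171.4 FPKM) and smooth muscle markers for 3 of 3 tested (714.2 to 736.6 against 389.2 to 410.5 FPKM). Fibroblast and tendon markers were lower for 3 of 4 tested (2668.1 to 2853.9 against 2948.4 to 3065.7 FPKM), as were the 1 Schwann cell and the 1 red blood cell marker tested. The 1 leukocyte marker tested did not pass, and no endothelial or adipocyte marker reached the filter. The part of these markers in the differences was not tested.

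Over the 24 GC libraries of the Norm, Hypo and HFrD set, the genes with the pattern most like each heavy chain were sought among 4489 genes averaging 5 FPKM or more. Myh2 was most like Smtnl1 (Pearson r = 0.931), Ppip5k1 (0.865) and Apol6 (0.849). Myh1 was nearest to Mybpc1 (0.780), Mustn1 (0.660) and Atf5 (0.631), and Myh4 to Myom1 (0.827), Rasd2 (0.740) and Dnaja2 (0.732). Between the heavy chains r was 0.390 for Myh2 with Myh1, -0.406 for Myh2 with Myh4 and -0.444 for Myh1 with Myh4. These are descriptions, over libraries that share groups and the split described above.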

How the data were processed

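Deposited FPKM tables were used for all 62 libraries. Per the labels the authors' tools included fastp 0.18.0, Bowtie2 2.2.8, HISAT2 2.1.0, StringTie 1.3.1 and RSEM, with build GRCm39, while gene positions in the chow table matched GRCm38. That the AAV and C2C12 tables also hold FPKM was judged from their values. The entry of Tnnc2 in the Norm, Hypo and HFrD table was left out, as was a second Myl1 entry on an alternate scaffold in the chow table.

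Genes averaging 0.5 FPKM or more were tested on log2(FPKM + 1) with limma 3.58.1 (lmFit, eBayes with trend, R 4.3.3), two-sided, over the 2 groups compared (4 for an interaction), with Benjamini-Hochberg adjustment over all genes and a threshold of 0.05. Differences on this scale understate those of low genes. Whole reads were recovered from the FPKM of the Norm, Hypo and HFrD set and tested with voom as an alternative. The script was tested on simulated data. Named genes were the members, Mlxipl, Myh7, the 3 genes most like each heavy chain and, per list, up to 3 rising and 3 falling most among those passing; some genes this rule names are not reported here. Members and lists were chosen with earlier results of these data known. SOL and GC of one number were taken as one mouse from the numbers in the labels. Same-numbered muscles had correlations of -0.02 to 0.32 in F/F mice and 0.02 to 0.05 in ChMKO mice, where 1 of 5 was closest to its own number. Same-numbered AAV libraries deviated together (r = 0.21 to 0.49), though number 4 was closer to another number (0.34) than to its own (0.25). Alternatives were another pseudocount (0.1), no filter, a minimum of 5 FPKM, median-ratio scaling, 1 fit per set, blocks, each library left out and, added after seeing the data, the split of the Norm, Hypo and HFrD libraries (values with no test) and a mouse block without number 69. Analyses of sequence and figures used Python 3.11.15.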

Additional observations from a re-analysis of the deposited data

Results flagged for a closer look

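Single libraries lay apart from their group, by the gap to the nearest library over the range, in 15 of 134 sets of a member and a group; chance marks about 1 in 20. In F/F GC of the chow set, Myh4 was lowest in mouse 58 (8918.7 FPKM, next 11272.3) and Tnnt3 highest in mouse 69 (9599.9 FPKM, next 7155.7). In ChMKO GC, Myoz1 was highest in mouse 60 (1571.0 FPKM). Mouse 61 was highest in ChMKO SOL for Mylpf (1977.1 FPKM), Tnnc2 (8562.5 FPKM) and Tnnt3 (4086.5 FPKM).

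In the Norm, Hypo and HFrD set, Myh2 was highest in 1 Norm F/F mouse (479.4 FPKM, next 238.1) and Actn3 lowest in another (2532.5 FPKM). Myh1 was highest in 1 HFrD F/F mouse (687.6 FPKM, next 450.9) and Tnni2 in 1 HFrD ChMKO mouse (3418.2 FPKM).

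Mylpf was lowest in AAV-CON library 3 (9914.9 FPKM) and Myl1 in AAV-MLXIPL library 7 (9064.4 FPKM, next 11222.3). In C2C12 cells, Myh4 was lowest in control library 2 (4.43 FPKM), Mylpf highest in Ch-OE library 2 (896.3 FPKM) and Myoz1 lowest in Ch-OE library 3 (0.06 FPKM, next 0.40).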

How the results depend on the processing

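The number of members passing changed by more than 1.5 times in 2 comparisons. For HFrD against Norm in F/F mice it was 0, and became 1 (Myoz1, adjusted p = 0.0428) with all groups in 1 fit, where 2.06% of all genes passed. For the interaction of genotype and diet it was 0 to 1 when single libraries were left out, the 1 being Tnni2 without the Norm F/F mouse with the highest Myh2 (-0.44, adjusted p = 0.0396), where 10.2% of all genes passed. The number moved by 1 in a further 3 comparisons, to 9 for SOL against GC in ChMKO mice, to 5 for HFrD against Norm in ChMKO mice, and to 6 or 8 in C2C12. The members behind this were Myh1 for SOL against GC in ChMKO mice in 11 of 16 alternatives (median-ratio scaling 0.16, adjusted p = 0.329; 0.27 to 0.35 in the 7 of 10 left-out libraries that lost the call), Myh4 for HFrD against Norm in ChMKO mice with no filter (adjusted p = 0.0620), Myh4 in C2C12, which was not tested with a minimum of 5 FPKM, and Actn3 in C2C12 without control library 1 (adjusted p = 0.0407). No member that passed with all libraries of its groups changed sign under the alternatives run. The causes were not tested.

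With mouse as a block, 9 members passed for SOL against GC in F/F mice (also 9 without number 69) and 9 in ChMKO mice. With the library number as a replicate block, 0 passed in the AAV set and 7 in C2C12, where 3357 genes passed in place of 3645. C2C12 numbers only name libraries (correlation of deviations -0.09 to 0.18, 2 of 4 libraries closest to their own number). The block in the interaction of genotype and muscle left 0, and no call but that of Myh1 changed under a block. C2C12 depth is unknown, so no limit of detection is given for Myh2 and Myoz1, which the filter of 0.5 FPKM left untested there.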
